A study of Mus musculus with 55 samples.

Results

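The postsynaptic density is the protein layer under the membrane of an excitatory synapse, where scaffold proteins hold glutamate receptors beside the enzymes that answer to them. Described here are 9 genes of that layer, chosen by name as the scaffold genes Dlg2, Dlg3, Dlg4, Shank1, Shank2, Shank3 and Homer1 and the kinase genes Camk2a and Camk2b. All 9 passed the filter on low counts and were among 16168 genes tested, out of 55487 genes in the count table. The samples were dorsal hippocampi of 55 adult mice on the C57/BL6j background, 1 library per mouse, either wild type (WT) or Cnih3 knock-out (KO). The knock-out carries a germline deletion of exon 4 of Cnih3, the gene of an auxiliary protein of AMPA receptors, so that it is present in every cell rather than in 1 cell type. Females were staged by vaginal cytology. The WT mice comprised 4 metestrus, 6 diestrus, 5 proestrus and 7 estrus females with 5 males, and the KO mice 5 metestrus, 6 diestrus, 4 proestrus and 6 estrus females with 7 males. Ages ran from 10.86 to 23.71 weeks. All KO mice came from Cnih3 matings, whereas many of the WT mice came from B6 x B6 matings.

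In this layer the Dlg proteins (the family of PSD-95, which Dlg4 encodes) bind receptors and adhesion proteins by their PDZ domains, and Shank proteins join them from below through GKAP proteins. Homer proteins tie the Shanks to metabotropic glutamate receptors and to calcium stores. CaMKII is a ring of subunits, chiefly alpha (Camk2a) and beta (Camk2b) in forebrain, that calcium and calmodulin switch on; it is needed for long-term potentiation in hippocampus. Its messenger RNAs differ in place, since that of Camk2a is carried into dendrites.

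The libraries held between 25881295 and 63547098 counts per mouse, with a median of 53384170. Each of the 9 genes had at least 174 counts in every library, so that counting error was small beside the spread between mice. Levels are given as log2 CPM, that is counts scaled to the size of the library by TMM. The Cnih3 row itself overlapped between genotypes (4.43 to 5.97 in WT and 4.43 to 5.58 in KO mice), which does not check the labels, because the deletion removes only 1 exon. Of the defining markers of the tissue, 5 of CA1 pyramidal cells (Fibcd1 and Wfs1 among them) summed to 252 to 430 CPM and 5 of dentate granule cells (Prox1 and C1ql2 among them) to 168 to 281 CPM, and none was at 0 in any library. A group of 7 diestrus libraries, those of the mice under 14 weeks of age, stood apart from nearly all others. In these 7 mice the summed level of 5 nuclear RNAs (Malat1, Neat1, Meg3, Snhg11 and Miat) was 438 to 824 CPM, against 2420 to 4090 CPM in the 5 older diestrus mice. In the 43 mice of other groups it was 796 to 4140 CPM, and in 10 of those that were also under 14 weeks it was 1400 to 4010 CPM. KO males were all of 18.29 weeks or more, while KO diestrus mice had a median age of 12.43 weeks. In bulk tissue fewer cells of a type and less RNA per cell cannot be told apart.

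Per length of exon, the kinase genes stood far above the scaffolds. The length is that of all annotated exons of a gene joined, from 5844 bases in Dlg3 to 16280 in Dlg2, not that of 1 transcript. The order of the scaffolds depends on it, since before division by length Dlg4 (mean 6.80 log2 CPM) was above Dlg3 (6.38). The mean level of Camk2a over the 55 mice was 252 ± 49.3 CPM per kb (SD) and that of Camk2b was 137 ± 11.5. Shank1 followed at 22.2 ± 3.88 CPM per kb and Dlg3 at 14.5 ± 2.23. Dlg4, Homer1, Dlg2 and Shank2 lay close together, with 8.43 ± 0.921, 7.46 ± 1.42, 6.35 ± 0.863 and 5.34 ± 0.924 CPM per kb, and their ranges over mice overlapped. Shank3 was the lowest, at 1.19 ± 0.303 CPM per kb. Shank3 also varied most among mice of the same group (pooled SD 0.37 on the log2 scale) and Camk2b least (0.13), where the median over all genes tested was 0.27. The 2 kinase genes differed in how far their group means spread, which was 0.70 for Camk2a and 0.09 for Camk2b on the log2 scale.

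Camk2a was higher in diestrus than in proestrus in both genotypes by limma, and in KO females it differed between 5 of the 6 pairs of stages, of which edgeR called 1 and DESeq2 called 2. In WT mice in diestrus its level ran from 10.77 through a median of 11.09 to 11.34 log2 CPM. In WT proestrus the 5 mice were at 10.44, 10.53, 10.59, 10.68 and 10.96. The groups overlapped, through the proestrus mouse at 10.96 and the diestrus mouse at 10.77. The fitted difference was 0.53 ± 0.11 (log2 ± SE, 1.44-fold, FDR 0.00382 by limma, where 9.66% of all genes passed the FDR threshold of 0.05). WT diestrus also exceeded WT estrus, where Camk2a ran from 10.72 to 11.03 with a median of 10.88, by 0.27 ± 0.10 (FDR 0.0445, where 22.1% of all genes passed). Neither WT call was made by edgeR (0.45, FDR 0.138, and 0.24, FDR 0.204), by DESeq2 (0.45, FDR 0.0627, and 0.25, FDR 0.149) or without quality weights (0.44, FDR 0.106, and 0.23, FDR 0.183). Without any 1 of the diestrus mice 548, 549 and 569 the first difference was 0.34 to 0.37 (FDR 0.167 to 0.183) and the second 0.07 to 0.10 (FDR 0.638 to 0.722), and the second was also lost without estrus mouse 1_1, 3_2 or 8_3 (0.25 to 0.27, FDR 0.0502 to 0.0696). The median RNA integrity number was 8.9 in WT diestrus, 8 in WT proestrus and 8.4 in WT estrus. With that number as a covariate neither WT call was made. In that fit 141 of 16168 genes passed between WT diestrus and WT proestrus, and 0 between WT diestrus and WT estrus.

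In KO females the same order held with wider steps. KO diestrus mice ran from 10.66 through 11.33 to 11.53 log2 CPM of Camk2a, and the 4 KO proestrus mice were at 10.31, 10.55, 10.59 and 10.60. Every diestrus mouse was above every proestrus mouse; the groups did not overlap for 6.88% of all genes. The difference was 0.81 ± 0.10 (1.76-fold, FDR 4.22e-07). The 5 KO metestrus mice, at 10.69, 10.87, 11.00, 11.02 and 11.12, were also all above the proestrus mice (0.41 ± 0.11, FDR 0.0303, where 4.37% of all genes passed), as the groups did not overlap for 8.57% of all genes. KO estrus mice ran from 10.60 through 10.99 to 11.18 and lay between, 0.36 ± 0.09 below diestrus (FDR 0.00362, where 30.7% of genes passed) and 0.45 ± 0.11 above proestrus (FDR 0.0388, where 0.507% passed). Metestrus was below diestrus by 0.41 ± 0.10 (FDR 0.00406, where 10.4% passed). The step from diestrus to proestrus was also called by edgeR (0.72, FDR 0.00133) and DESeq2 (0.74, FDR 2.43e-05). Of the other 4 calls edgeR made none (FDR 0.132 to 0.596), and DESeq2 made that between proestrus and estrus (FDR 0.0476). Metestrus and estrus of the KO mice were not separated, and 0% of the 16168 genes passed between them by limma (1367 had an unadjusted p under 0.05, and edgeR and DESeq2 called 0). The call between metestrus and proestrus was lost without KO metestrus mouse 10_1 or 14_4 or KO proestrus mouse 12_4 or 12_5 (0.39 to 0.47, FDR 0.0551 to 0.126), and that between proestrus and estrus without KO estrus mouse 12_1, 12_2 or 12_3 or KO proestrus mouse 12_4, 14_1 or 14_2 (-0.37 to -0.49, FDR 0.056 to 0.195).

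**Figure D1:**
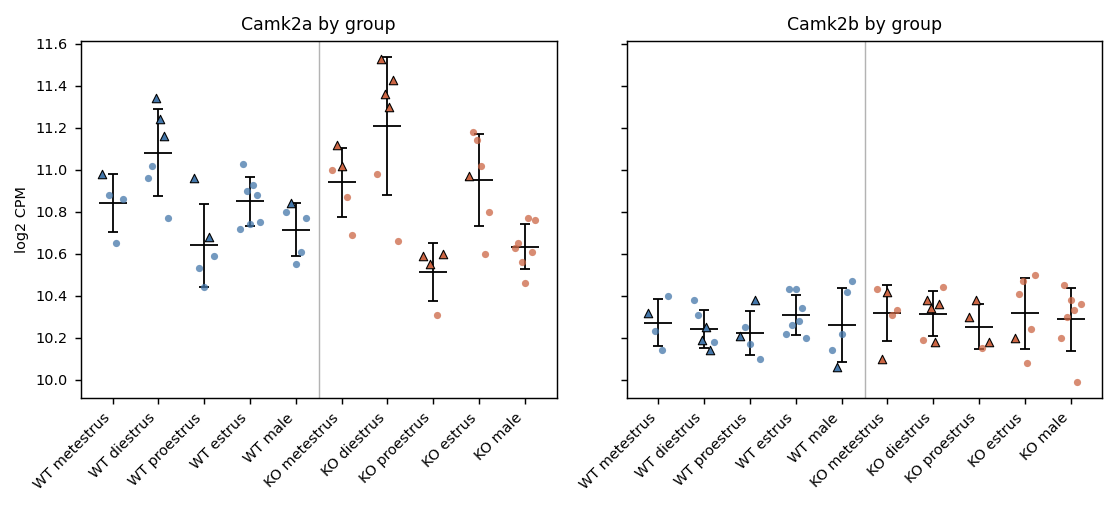
Level of Camk2a (left) and Camk2b (right) in each of the 55 mice on 1 shared log2 CPM axis, by genotype and stage, with group means and SD bars; triangles are mice under 14 weeks of age and circles older mice. The Camk2a means are highest in diestrus, where the triangles lie between 11.16 and 11.53, whereas the Camk2b means stay within 0.09 of each other.

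The diestrus levels of Camk2a were divided by age. In WT diestrus the 3 mice under 14 weeks were at 11.16 to 11.34 log2 CPM and the 3 older mice at 10.77 to 11.02. In KO diestrus the 4 younger mice were at 11.30 to 11.53, and the 2 older mice at 10.66 and 10.98. Younger and older diestrus mice thus did not overlap in either genotype, in sets of 2 to 4 mice. The share of all genes that did not overlap in this way was not counted. In the 10 mice under 14 weeks of other groups Camk2a was at 10.55 to 11.12 (median 10.90). In all 43 mice outside diestrus it was at 10.31 to 11.18 (median 10.76). With only the older diestrus mice kept, diestrus exceeded proestrus by 0.33 ± 0.11 in WT (FDR 0.644) and by 0.28 ± 0.14 in KO mice (FDR 0.759), KO diestrus was 0.16 below KO estrus (FDR 1), and KO metestrus was 0.12 above KO diestrus (FDR 1), both the other way from the full groups. With only the younger ones kept, the same differences from proestrus were 0.69 ± 0.10 in WT (FDR 7.58e-07) and 0.93 ± 0.09 in KO mice (FDR 6.63e-11). Among mice of 14 weeks or more, KO metestrus exceeded KO proestrus by 0.54 and KO proestrus was 0.64 below KO estrus. This left 1 KO proestrus mouse, 14_1, the lowest of its group for Camk2a at 10.31. With age in weeks as a covariate diestrus exceeded proestrus by 0.43 ± 0.09 in WT (FDR 0.00426) and 0.78 ± 0.08 in KO mice (FDR 2.55e-08), and KO diestrus exceeded KO estrus by 0.14 ± 0.08 (FDR 0.196). KO metestrus minus KO diestrus was then -0.16 (FDR 0.357). In that fit KO metestrus exceeded KO proestrus by 0.62 (FDR 7.52e-05), and KO proestrus minus KO estrus was -0.63 (FDR 2.69e-05). WT proestrus minus WT estrus, not called for Camk2a by limma without covariates, was -0.34 with age (FDR 0.00331). It was -0.27 in the fit that kept only the older diestrus mice (FDR 0.0408).

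All 5 nuclear RNAs were lower in diestrus than in proestrus in both genotypes (median log2 difference -1.42 in WT and -2.25 in KO), and 8 of 11 oligodendrocyte markers were lower too (median -0.64 and -0.68). The summed oligodendrocyte level ran from 3300 to 5620 CPM in WT diestrus and 4010 to 7140 in WT proestrus, and from 3150 to 5020 in KO diestrus and 4250 to 6620 in KO proestrus, and none of these markers was at 0 in any library. With the level of the nuclear RNAs as a covariate, a covariate added once the values had been seen, Camk2a in KO diestrus exceeded KO proestrus by 0.45 ± 0.11 (FDR 0.0451) and in WT diestrus exceeded WT proestrus by 0.29 ± 0.10 (FDR 0.268). With the oligodendrocyte markers as a covariate these values were 0.54 ± 0.12 (FDR 0.004) and 0.27 ± 0.11 (FDR 0.496). Over the 43 mice outside diestrus, with group means removed, Camk2a was not shown to follow either list (Pearson r = -0.124 with the nuclear RNAs, adjusted permutation p = 0.481, and r = -0.098 with the oligodendrocyte markers, adjusted permutation p = 0.561, over 18 such relations). The 7 younger diestrus mice, at 438 to 824 CPM of nuclear RNAs, were not among these 43. A relation carried by those mice was therefore not tested. 

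**Figure D2:**
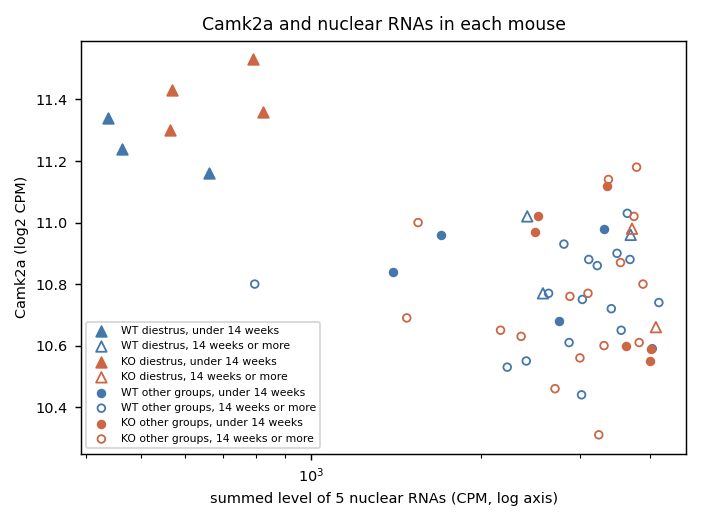
Camk2a (log2 CPM) against the summed level of 5 nuclear RNAs (CPM, log axis) in each of the 55 mice; triangles are diestrus mice, circles all others, filled symbols mice under 14 weeks. The 7 filled triangles lie apart at 438 to 824 CPM with Camk2a at 11.16 or above, and the open triangles lie among the circles.

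Camk2b did not follow its partner subunit. Its group means ran from 10.22 log2 CPM in WT proestrus to 10.32 in KO metestrus, with single mice between 9.99 and 10.50. Camk2b passed the threshold in no comparison fitted by limma, and its fitted differences between groups ran from -0.08 (KO proestrus minus KO estrus, 95% interval -0.23 to 0.07) to 0.09 (KO against WT in diestrus, 95% interval -0.05 to 0.24). In the pair with the widest Camk2a difference, KO diestrus against KO proestrus, Camk2b differed by 0.02 ± 0.07 (95% interval -0.12 to 0.16). The level of Camk2a per length relative to Camk2b in the same library averaged 1.13 ± 0.25 log2 units in WT diestrus (SD, n = 6) and 0.70 ± 0.20 in WT proestrus (n = 5), and 1.19 ± 0.36 in KO diestrus (n = 6) and 0.55 ± 0.12 in KO proestrus (n = 4). The ratio differed by 0.43 between the WT pair (exact two-sided permutation p = 0.0216) and by 0.64 between the KO pair (exact permutation p = 0.0238). None of 20 such comparisons held after adjustment (smallest adjusted p = 0.0898 by exact permutation), and the ratio was chosen for testing after the levels had been seen. With only the diestrus mice of 14 weeks or more kept, the ratio differed by 0.21 in the WT pair (exact permutation p = 0.161) and by 0.25 in the KO pair (exact permutation p = 0.267).

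Against males, Camk2a was higher in KO diestrus and KO estrus, and no member passed the threshold in WT mice. The 7 KO males ran from 10.46 through 10.63 to 10.77 log2 CPM, below 5 of the 6 diestrus mice. The difference was 0.67 ± 0.09 in diestrus (1.59-fold, FDR 1.22e-07) and 0.31 ± 0.09 in estrus (FDR 0.0323). In the older diestrus mice alone the first was 0.14 ± 0.13 (FDR 0.868). With age as a covariate the values were 0.35 (FDR 0.00851) and 0.21 (FDR 0.105). In KO diestrus against KO males 9 of 11 oligodendrocyte markers (median -0.91), 6 of 6 microglia markers (median -0.49) and 5 of 5 nuclear RNAs (median -1.57) were lower. With the oligodendrocyte markers as a covariate the diestrus difference in Camk2a was 0.40 (FDR 0.0402), and with the nuclear RNAs it was 0.37 (FDR 0.0138). The part of the microglia markers was not tested. The estrus call was lost without estrus mouse 12_2 or 12_3 or male 1950, 2016 or 2129 (0.20 to 0.29, FDR 0.0598 to 0.238). WT diestrus differed from the 5 WT males, at 10.55, 10.61, 10.77, 10.80 and 10.84, by 0.44 ± 0.12 (unadjusted p = 0.000633, FDR 0.10 by limma). With the younger WT diestrus mice alone it was 0.62 ± 0.11 (FDR 5.08e-05).

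Across the 6 stage pairs of WT females, 3 of the 9 members passed the threshold in at least 1 pair, with 30.6% of all genes doing so; across those of KO females it was 5 of 9 against 46.2% of all genes. These shares are near the background. Of 25 single differences of a member that passed by limma between stages or between females and males, edgeR kept 5, namely Camk2a and Dlg2 in KO diestrus against KO proestrus and against KO males and Homer1 in KO estrus against KO males. DESeq2 kept 7 of the 25, the fit without quality weights 5, that without a filter on low counts 7, that with age 11, that with the RNA integrity number 19 and that with the older diestrus mice alone 7. The RNA integrity fit lost the Camk2a and Shank1 calls of WT diestrus. It also lost Camk2a in KO metestrus against KO proestrus, Dlg3 in KO diestrus against KO proestrus and Homer1 in KO diestrus against KO estrus. No gene of the 16168 passed by limma between diestrus and another stage with the older diestrus mice alone, 3 in WT and 2 in KO (125 to 1087 had an unadjusted p under 0.05 in each, and edgeR was not run on these mice). Against males the counts were 0 of 9 in WT mice, where 0.0866% of genes passed (3 members had an unadjusted p under 0.05), and 6 of 9 in KO mice, where 33.6% did. In KO diestrus against KO proestrus 4 members passed, against 34.3% of all genes, with a median member difference of 0.11 beside -0.03 over all genes. In KO diestrus against KO males 4 members passed, all higher, where 28.7% of genes passed and 10.7% were higher, and in KO estrus against KO males 4 passed, all higher, where 7.66% passed and 4.32% were higher. The median member difference was 0.19 in both, beside 0 over all genes. In KO estrus all 9 members had a positive fitted difference from males, as they had in WT estrus, where none passed.

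**Figure D3:**
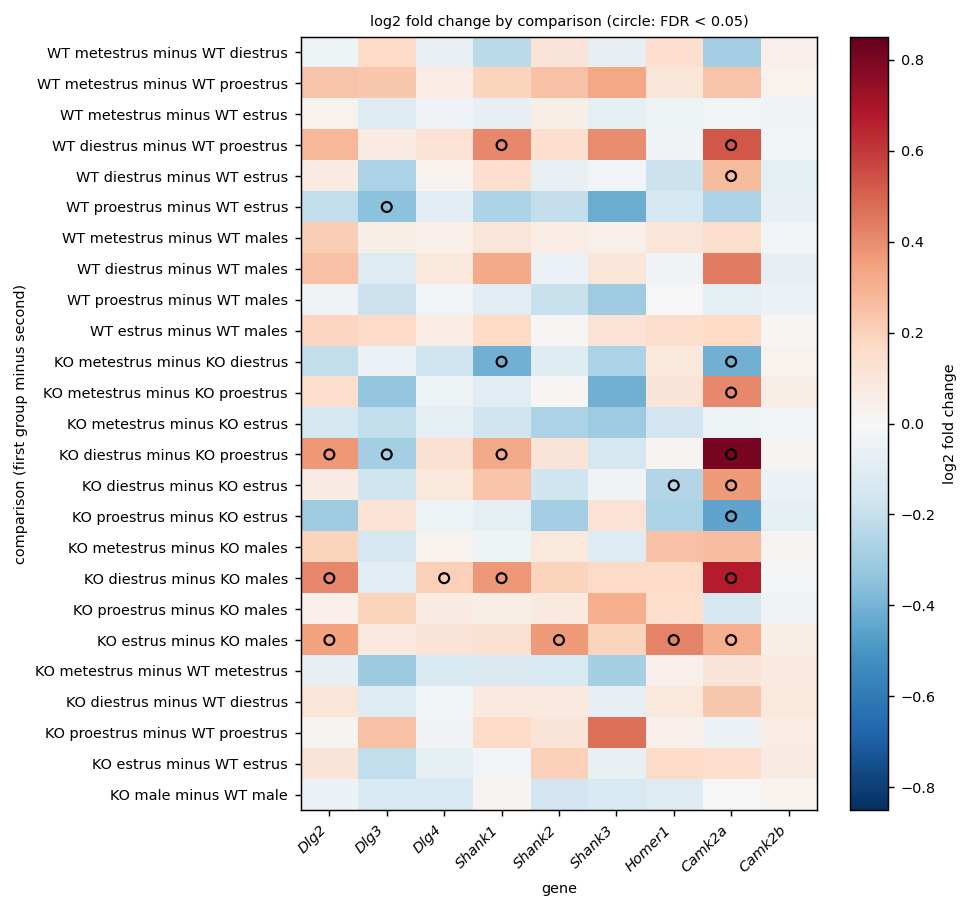
Fitted log2 fold change of each of the 9 genes (columns) in 25 comparisons (rows, first group minus second), with red for higher in the first group and circles where the FDR was under 0.05. The circles gather on Camk2a, Dlg2 and Shank1 in rows with KO diestrus, and the Camk2b column is near white throughout.

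Of the Dlg genes, Dlg2 was higher in KO diestrus and KO estrus than in KO males. Its protein, a close relative of PSD-95, holds receptors and potassium channels. KO males ran from 6.31 through 6.49 to 6.58 log2 CPM, KO diestrus mice from 6.63 through 6.89 to 7.03, and KO estrus mice from 6.58 through 6.89 to 7.02. Neither female group overlapped the males, although the lowest estrus mouse and the highest male were level at 2 decimals (1.61% of all genes in the diestrus comparison and 0.835% in the estrus comparison did not overlap). The difference was 0.41 ± 0.08 in diestrus (FDR 0.000152), 0.34 ± 0.09 in estrus (FDR 0.013) and 0.24 ± 0.06 over the 4 stages (FDR 0.0183, where 5.93% of genes passed). With age as a covariate these values were 0.22 (FDR 0.125), 0.28 (FDR 0.0472) and 0.13 (FDR 0.465). Among mice of 14 weeks or more, which left 1 KO proestrus mouse (14_1, at 5.84), the value over the 4 stages was -0.01. In the older KO diestrus mice alone the diestrus value was 0.20 ± 0.14 (FDR 0.735); a correction for GC content and exon length left the estrus value at 0.11 (FDR 0.441). The estrus call was lost without estrus mouse 12_2 or 12_3 or male 2591 (0.26 to 0.32, FDR 0.0534 to 0.091), and the call over the 4 stages without proestrus mouse 12_4 or 12_5 or male 2016, 2589 or 2591 (0.17 to 0.23, FDR 0.0627 to 0.134). Dlg2 also differed between KO diestrus and KO proestrus by 0.37 ± 0.09 (FDR 0.00181), and by 0.17 ± 0.15 in the older diestrus mice (FDR 0.876). The 4 KO proestrus mice were at 5.84, 6.66, 6.67 and 6.69, so that 1 mouse lay far below the others. Without that mouse, 14_1, the difference was 0.22 (FDR 0.0241), and without mouse 12_5 it was 0.56 (FDR 0.00033).

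Dlg4, which encodes PSD-95, the most abundant scaffold of the density, moved little. KO males ran from 6.57 through 6.71 to 6.86 log2 CPM and KO diestrus mice from 6.49 through 6.83 to 7.02, which overlapped. This was its 1 call, at 0.20 ± 0.07 (FDR 0.0276), and the value was -0.06 in the older diestrus mice alone (FDR 0.974). It was lost without KO diestrus mouse 532 or 643 or male 2016, 2129 or 2589 (0.15 to 0.17, FDR 0.0597 to 0.118). Its group means spread over 0.20.

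Dlg3, on chromosome X from 100767722 to 100818410, went the other way from Camk2a and Dlg2 between KO diestrus and KO proestrus. Its protein is the Dlg scaffold that predominates early in development. It was lower in KO diestrus (5.96 through 6.29 to 6.61 log2 CPM) than in KO proestrus (6.22, 6.52, 6.53 and 6.84) by 0.29 ± 0.11 (FDR 0.0408). The 2 older KO diestrus mice, at 6.60 and 6.61, were above all 4 younger ones, and the share of all genes divided in this way was not counted. With the older mice alone the difference was 0.08 in the other direction (FDR 0.953). The call was not made by edgeR or DESeq2. It was lost without proestrus mouse 12_4, 12_5 or 14_2 or diestrus mouse 532, 643 or 645 (-0.19 to -0.28, FDR 0.0705 to 0.228). In WT mice Dlg3 was 0.35 ± 0.11 lower in proestrus (5.86, 6.15, 6.27, 6.59 and 6.79) than in estrus (6.31 through 6.58 to 6.82; FDR 0.0373, where 6.82% of all genes passed). That call was lost without proestrus mouse 2_3, 20_2 or 4_1 or estrus mouse 1_1, 3_1 or 3_2 (-0.23 to -0.38, FDR 0.0542 to 0.296). Choroid plexus markers were higher in WT proestrus than in WT estrus for 5 of 6 (summed level 44.2 to 1400 against 17.7 to 112 CPM, with 1 marker at 0 in some library), and their part was not tested. Among the 4 stages the plain mean of Dlg3 was highest in proestrus in KO mice (6.53) and in estrus in WT mice (6.60, with proestrus at 6.33). The value of metestrus minus proestrus was lower in KO than in WT mice by 0.56 ± 0.17 on the log2 scale (-0.56, unadjusted p = 0.00128, FDR 0.131 by limma), and this difference passed with the RNA integrity number as a covariate (-0.61, FDR 0.0131).

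The Shank genes differed from one another. Shank1, whose protein is found mainly at synapses of brain, went with Camk2a. KO diestrus mice ran from 7.78 through 8.08 to 8.21 log2 CPM, and the KO metestrus mice, at 7.51, 7.61, 7.75, 7.80 and 7.88, overlapped only with the 2 older ones of them, at 7.78 and 7.81. Diestrus exceeded metestrus by 0.41 ± 0.10 (FDR 0.00792), proestrus by 0.32 ± 0.11 (FDR 0.0185) and males by 0.37 ± 0.09 (FDR 0.00256). In the older KO diestrus mice alone these were 0.10, 0 and 0.05, with FDR 0.989 or above. Shank1 holds 62.5% GC, where the median of all genes tested was 49.8%. With a correction for GC content and exon length, over all KO mice, metestrus minus diestrus was -0.61, diestrus minus proestrus 0.78 and diestrus minus males 0.72. Diestrus minus estrus, not called otherwise in the full groups, was then 0.54 (FDR 0.00195). The size of the Shank1 differences thus depended on this correction. The metestrus call was lost without metestrus mouse 10_1 (-0.34, FDR 0.0515), and the proestrus call without proestrus mouse 12_5 or 14_1 (0.31 and 0.25, FDR 0.0847 and 0.0731). In WT mice Shank1 was 0.41 ± 0.12 higher in diestrus than in proestrus (FDR 0.0287). The WT proestrus mice were at 7.46, 7.50, 7.63, 7.95 and 8.51, and the highest of them, mouse 8_2, had a quality weight of 0.19 in the fit, so that the plain means, 7.98 and 7.81, lay closer than the fitted difference. Without quality weights the difference was 0.18 (FDR 0.569), and it was 0.18 in the older diestrus mice alone (FDR 0.803) and was also lost without proestrus mouse 2_3 or 4_1 or diestrus mouse 548, 549 or 569 (0.25 to 0.38, FDR 0.0823 to 0.394). It was not called with the RNA integrity number as a covariate, and was 0.70 with the GC and length correction (FDR 0.0091).

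Shank2 passed in 1 comparison, KO estrus against KO males. KO estrus mice ran from 5.72 through 6.15 to 6.28 log2 CPM and KO males from 5.50 through 5.69 to 5.87, with 2 estrus mice within the range of the males. The difference was 0.36 ± 0.12 (FDR 0.0413), and it was not called by edgeR (0.38, FDR 0.12) or DESeq2 (0.37, FDR 0.0725). It was lost without any 1 of estrus mice 12_2, 12_3 and 9_1 and males 1950, 2016, 2129, 2589, 2590 and 2591 (0.30 to 0.37, FDR 0.056 to 0.185). Shank3, a gene mutated in Phelan-McDermid syndrome, passed in none of the comparisons by the limma fit without covariates. Its widest difference between genotypes was in proestrus, where the KO mice were at 3.22, 3.58, 3.59 and 3.98 log2 CPM and the WT mice at 2.85, 3.00, 3.09, 3.37 and 4.23 (0.47 ± 0.20, FDR 0.284). The WT mouse at 4.23 was again mouse 8_2. With the RNA integrity number as a covariate that difference passed (0.58, FDR 0.0302), as did WT proestrus minus WT estrus (-0.56, FDR 0.0158, and -0.54, FDR 0.029, with age). KO diestrus minus KO males passed with the GC and length correction (0.50, FDR 0.017).

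**Figure D4:**
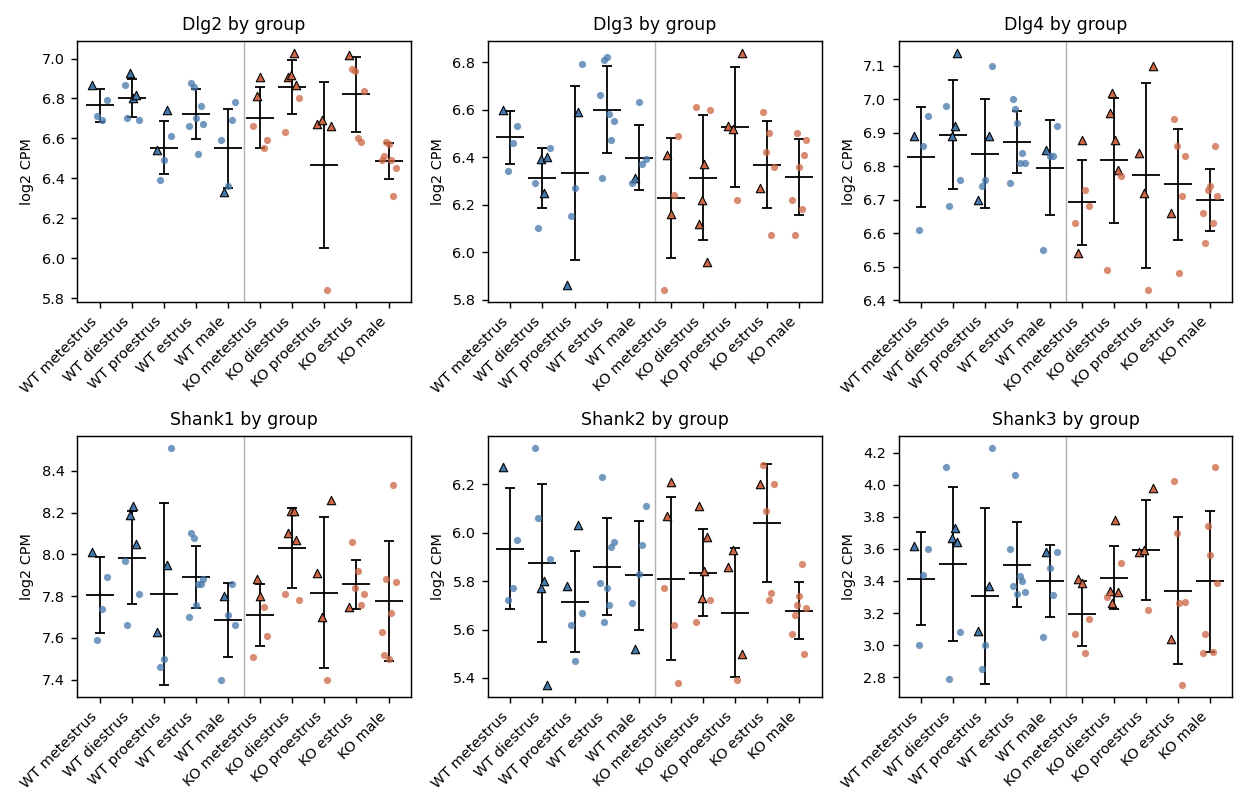
Level (log2 CPM) of the 6 Dlg and Shank genes in each of the 55 mice by genotype and stage, each panel with its own axis, with group means and SD bars; triangles are mice under 14 weeks. In KO diestrus the triangles of Shank1 lie above the circles and those of Dlg3 below them, and 1 KO proestrus mouse stands low for Dlg2 at 5.84.

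Homer1 makes a long scaffold protein and, when neurons fire, a short form that ends early and uncouples the long ones. The gene lies on chromosome 13 from 93299635 to 93405129 (GRCm38, plus strand). In the transcript table a transcript of 9 exons and 370 codons (93308034 to 93405129) represented the long form, and a transcript of 5 exons and 186 codons (93304495 to 93360462) the short one. Another pair of annotated long transcripts, of 354 and 366 codons, was absent from the deposited transcript values and was not analysed here. The coding sequences begin differently and then share 522 bases, the last of them at position 93356079. The short transcript then reads on into what is intron for the long form and stops within 34 bases (93356080 to 93356113), whereas the long transcript continues in an exon that starts at 93387524. The last 18 shared coding bases are printed in lower case and the bases particular to each transcript in capitals (for the long transcript the first 60 of them), from the GENCODE M21 transcripts, since a read is assigned to 1 form by such bases.
Homer1 short: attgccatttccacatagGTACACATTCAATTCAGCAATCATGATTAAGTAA
Homer1 long: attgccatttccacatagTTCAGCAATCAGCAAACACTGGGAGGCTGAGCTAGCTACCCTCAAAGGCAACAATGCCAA

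Upstream of its 2 RefSeq starts the gene offers different sequence. The first window, chr13:93303507-93303806 (GRCm38.p6, plus strand, 250 bases before and 50 after the start at 93303757), holds the 6 letters TGACGT, the core of the cyclic AMP response element, 3 times, printed in capitals. Counting TGACGT and its reverse complement ACGTCA, 7.51% of 32851 promoter windows of 300 bases hold at least 1 copy and 0.201% hold 3 or more. The window at the second start (chr13:93307784-93308083), which is where the analysed long transcript begins, holds 0 copies, as do the 10 windows given for Dlg2, Dlg3, Dlg4, Shank3 and Camk2b. The short transcript is annotated from 93304495, downstream of the first window. The long transcripts that were not analysed are annotated from 93304799 and 93305159, also downstream of it. The match is of letters only.
Homer1 first start: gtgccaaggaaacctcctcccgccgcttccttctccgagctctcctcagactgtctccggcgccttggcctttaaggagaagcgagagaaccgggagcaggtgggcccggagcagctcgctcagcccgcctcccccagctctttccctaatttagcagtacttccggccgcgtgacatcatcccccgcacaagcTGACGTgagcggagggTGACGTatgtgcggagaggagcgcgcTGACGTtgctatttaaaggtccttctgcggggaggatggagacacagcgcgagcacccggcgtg

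As a gene, Homer1 was higher in KO estrus than in KO males. KO estrus mice ran from 6.28 through 6.70 to 7.52 log2 CPM and KO males from 6.16 through 6.28 to 6.47, with 1 estrus mouse within the range of the males. The difference was 0.42 ± 0.10 (1.33-fold, FDR 0.00624), and 0.36 without the estrus mouse at 7.52, mouse 12_1 (FDR 0.0114). It fell to 0.21 with a correction for GC content and exon length (FDR 0.221). Homer1 also exceeded males over all KO females by 0.24 ± 0.07 (FDR 0.0313), and was 0.25 ± 0.10 lower in KO diestrus than in KO estrus (FDR 0.0436), a call that was lost with the older diestrus mice alone (-0.21, FDR 1) and without mouse 12_1 (-0.20, FDR 0.0844), estrus mouse 12_2, 12_3 or 9_1 or diestrus mouse 532 or 645 (-0.18 to -0.25, FDR up to 0.21). The call over all females was lost without any 1 of 10 mice (0.21 to 0.22, FDR 0.0532 to 0.228), namely metestrus 11_1, 14_4 and 6_1, estrus 12_3, proestrus 12_4 and 12_5, diestrus 7_1 and males 2016, 2589 and 2591. The oligodendrocyte markers were nearly level between KO estrus and KO males (2 of 11 lower, median -0.13), 0 of 5 nuclear RNAs passed, 2 of 7 immediate early genes were higher (median 0.43) and 2 of 6 microglia markers lower. In KO diestrus against KO estrus all 7 immediate early genes (median -0.76), 5 of 5 nuclear RNAs (median -2) and 7 of 11 oligodendrocyte markers (median -0.52) were lower. With the oligodendrocyte markers as a covariate Homer1 in KO estrus minus KO males was 0.39 (FDR 0.00575), and in KO diestrus minus KO estrus -0.38 (FDR 0.0405). With the nuclear RNAs as a covariate KO estrus minus KO males was 0.41 (FDR 0.00998), and KO diestrus minus KO estrus was not called. The part of the immediate early genes and the microglia markers was not tested.

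Of the 10 Homer1 transcripts in the table, 3 passed the filter on low values. The long transcript held a median of 82.7% of the estimated counts of these 10 transcripts and the short transcript 15.7%, with 8.99% to 63.7% for the latter over the 55 mice. Annotated long transcripts that are absent from the table do not enter these shares. The short transcript had a mean of 4.08 ± 0.27 log2 CPM in KO metestrus (SD, n = 5) and 4.27 ± 1.27 in KO estrus (n = 6), against 3.33 ± 0.45 in KO diestrus (n = 6), 3.45 ± 0.45 in KO proestrus (n = 4) and 3.04 ± 0.44 in KO males (n = 7). In WT mice the means lay between 3.24 and 3.62. KO metestrus mice, at 3.77 to 4.41, were above every KO male, at 2.47 to 3.67, and the share of all transcripts without overlap was not counted. The fitted difference of 1.07 ± 0.30 had an FDR of 0.29, in a comparison where 0.0338% of 26632 transcripts passed the FDR threshold. KO estrus exceeded KO males by 1.08 ± 0.29 (FDR 0.0878, where 0.207% passed) and KO diestrus by 0.76 ± 0.29 (FDR 0.0883, where 7.51% passed). Without mouse 12_1, at 6.68, the KO estrus mean was 3.79 ± 0.52 (n = 5), KO estrus exceeded KO males by 0.84 ± 0.24 (FDR 0.117), and KO diestrus minus KO estrus was -0.51 ± 0.24 (FDR 0.167). No Homer1 transcript passed in any of the 12 stage pairs by limma, although all 3 had an unadjusted p under 0.05 in at least 1 pair, and the smallest FDR was 0.279 with edgeR; the short transcript passed in 1 fit, without KO estrus mouse 2593. The long transcript was flatter, with group means from 5.74 to 5.94.

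Mouse 12_1 of KO estrus stood apart through the short form. Its short-transcript level was 6.68 log2 CPM (98.3 CPM), where no other of the 55 mice exceeded 4.46, and 63.7% of its counts over the listed Homer1 transcripts were assigned to that one. Its long-transcript level, 5.74, was within the range of the other mice. Among the immediate early genes, its Fos (6.34 log2 CPM) and Fosb (6.26) were the highest of all mice, against 5.31 and 3.61 in the next highest. Its Npas4 (0.47) was the lowest of the 55, and Arc, Egr1, Junb and Nr4a1 were within the range of the other mice. Its quality weight was 0.39.

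**Figure D5:**
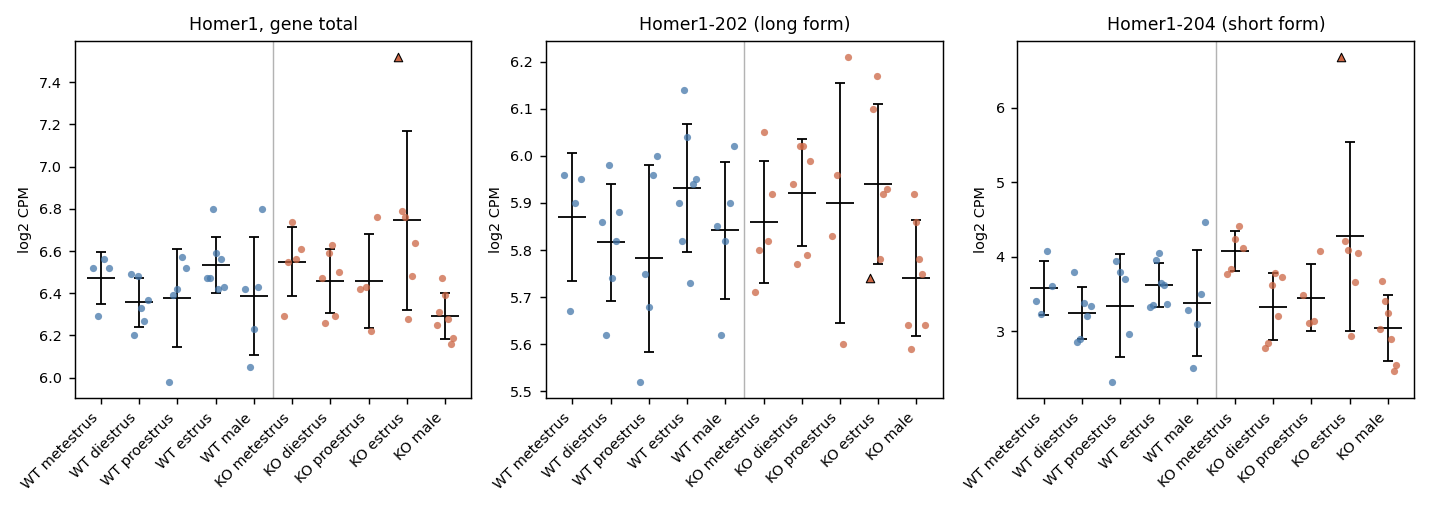
Homer1 as a gene (left), its long transcript (middle) and its short transcript (right) in each mouse (log2 CPM, each panel with its own axis), by genotype and stage, with group means and SD bars. The triangle is KO estrus mouse 12_1, at 7.52 for the gene and 6.68 for the short form but 5.74 for the long form.

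Between genotypes no member passed in the fit without covariates. No member passed for KO against WT within any of the 5 groups by limma, edgeR or DESeq2 (3 members had an unadjusted p under 0.05; 0.476% of all genes passed in at least 1 group). Over all mice none passed either, where 3.40% of genes did, and the member differences with an unadjusted p under 0.05 were -0.08 ± 0.04 for Dlg4 (FDR 0.258) and 0.07 ± 0.03 for Camk2b (FDR 0.279). No interaction between genotype and a step in stage or sex passed for any of the 16168 genes by limma (0%; the unadjusted p was under 0.05 for 394 to 2648 genes in each), and edgeR and DESeq2 called 0 members, so that the wider Camk2a steps of the KO mice were not shown to differ from those of WT mice. Camk2a passed for KO against WT in diestrus without WT mouse 548, 549 or 569, and a Dlg3 interaction without WT proestrus mouse 5_4. With the RNA integrity number as a covariate Dlg3 (0.36, FDR 0.0263) and Shank3 (0.58, FDR 0.0302) passed for KO against WT in proestrus. In that fit the value of diestrus minus proestrus was higher in KO than in WT mice for Camk2a (0.50, FDR 0.0266), and interactions of Dlg3 and Shank3 that involve proestrus passed too.

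The other postsynaptic genes, a list of 40 partners all of which were tested, went both ways. In KO diestrus against KO proestrus 6 were higher and 4 lower, where 34.3% of all genes passed, and in KO diestrus against KO males 6 were higher and 8 lower, where 28.7% passed, with medians of 0.02 and 0.04. The metabotropic receptor gene Grm5, whose protein Homer proteins bind, was lower in KO diestrus than in KO proestrus by 0.66 ± 0.14 (FDR 0.000211). The kinase anchor Akap5 (0.35 ± 0.07, FDR 0.000111) and the cortactin gene Cttn (0.40 ± 0.10, FDR 0.00105) were higher. Grm5 was also lower in WT diestrus than in WT estrus (-0.66 ± 0.14, FDR 0.000966), with the scaffold gene Tanc1 (-0.37 ± 0.09) and the neuroligin Nlgn3 (-0.45 ± 0.12), and no gene of the list was higher, where 22.1% of all genes passed. In KO estrus against KO males 4 were higher, among them Sipa1l1 (0.27 ± 0.08), Tanc1 (0.29 ± 0.08) and Magi2 (0.25 ± 0.07), and 1 was lower, where 7.66% of all genes passed. Nrgn, which binds calmodulin, was lower in WT diestrus than in WT proestrus (-1.33 ± 0.37, FDR 0.0189). With the older diestrus mice alone no gene of the list passed by limma in any of these comparisons with diestrus (3 to 7 had an unadjusted p under 0.05). KO diestrus minus KO proestrus was then -0.02 for Grm5, 0.28 for Akap5 and 0.09 for Cttn. WT diestrus minus WT estrus was -0.17 for Grm5, -0.11 for Tanc1 and 0 for Nlgn3. Between all KO and all WT mice 1 gene passed, the calcineurin gene Ppp3ca (-0.13 ± 0.03, FDR 0.00436).

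Within groups the members tended to vary together from mouse to mouse. With group means removed, 30 of the 36 pairs had a positive Pearson r over the 55 mice. After adjustment over the pairs, 18 passed by a two-sided permutation test, all positive, and 13 of these passed as well by Spearman's rho, without the 2 farthest libraries and over the 43 mice outside diestrus. The share among pairs of other genes was not counted, so whether the members vary together more than other genes do was not tested. The strongest were Shank1 with Shank3 (r = 0.731, rho = 0.681, adjusted permutation p = 6e-05, and r = 0.634 without 2 libraries), Dlg4 with Shank1 (r = 0.713, rho = 0.702, adjusted permutation p = 6e-05, and 0.685) and Dlg4 with Shank3 (r = 0.64, rho = 0.64, adjusted permutation p = 6e-05, and 0.654). A second set was Dlg2 with Homer1 (r = 0.602) and with Shank2 (r = 0.595). Camk2a and Camk2b were not related (r = 0.038, rho = 0.0599, adjusted permutation p = 0.784). The members share libraries, and the marker lists moved with them: over the 43 mice outside diestrus Shank1 rose with the nuclear RNAs (r = 0.522, rho = 0.487, adjusted permutation p = 0.0081, and r = 0.506 without 2 libraries), and Dlg3, Dlg4 and Shank3 did so with r between 0.401 and 0.447. Where oligodendrocyte markers were higher 6 members were lower, namely Dlg3 (r = -0.488, adjusted permutation p = 0.00864), Homer1 (-0.457), Shank1 (-0.432), Dlg2 (-0.421), Dlg4 (-0.416) and Shank3 (-0.366, adjusted permutation p = 0.0276), of which Shank1 and Shank3 did not pass by Spearman's rho. The part of these lists in the relations was not tested.

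Over all genes and the 55 libraries, with group means kept, the genes most like each member by Pearson r included Cdk14 (0.86) and Kif5a (0.813) for Camk2a and Gtf2i (0.746), Adarb1 (0.743) and Zeb2 (0.739) for Camk2b. For the scaffolds they were Psd3 (0.87), Ap2b1 (0.84) and Purb (0.839) for Dlg2, Zfand5 (0.808), Pura (0.788) and Ap1ar (0.785) for Dlg3, and Rasl10b (0.80), Sowaha (0.784) and Rnf10 (0.782) for Dlg4. Shank1 was most like Rasl10b (0.777), Myt1l (0.775) and B4galt2 (0.743), Shank2 like Lrrc7 (0.864), Iqsec1 (0.848) and Sphkap (0.814), Shank3 like Clip4 (0.791), Mark4 (0.773) and Eif3f (0.771), and Homer1 like Spred1 (0.811), Ago2 (0.798) and Nt5dc3 (0.782). Lrrc7 encodes densin, a protein of the same density that binds CaMKII. None of the 9 members was among the genes nearest to another member, although Dlg4 and Shank1 had Rasl10b in common.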

How the data were processed

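Dorsal hippocampal RNA was taken by the authors from the supernatant of a detergent lysate after a low-speed spin, amplified with the SMARTer Ultra Low kit and sequenced as paired reads. The kit is not stated to keep strand, so overlapping antisense genes cannot be told apart. Per the submitters' processing notes and the study's methods, reads were aligned to GRCm38 with STAR 2.7.9a, and the deposited counts are raw reads per gene from featureCounts 2.0.3; low counts were even in 60.1% of cases. The deposited transcript table holds estimated counts from Salmon 1.5.2, in libraries of 10896386 to 27195035, and a transcript CPM table from the authors, from which the library sizes were recovered. The authors' moderated log2 CPM table served as a check only (largest difference 5e-14 over 16164 genes), and the authors' gene CPM table was not used. Of 55774 lines in the gene table, 287 repeated a gene and were dropped, and 1 column with no matching sample was not used.

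Genes exceeding 1 CPM in 10 or more libraries, ribosomal RNA genes left out, were fitted with limma 3.58.1 on 10 groups (TMM, voom with sample quality weights, empirical Bayes), with Benjamini-Hochberg FDR over 16168 genes in each comparison and a threshold of 0.05. A fitted difference weights mice by quality, so it can differ from that of plain means. Estimated transcript counts were rounded and fitted the same way. edgeR 4.0.16 and DESeq2 1.42.0 were alternatives, and the scripts were tested on simulated counts. Mice are the replicates. Correlations used 100000 permutations. Age came from the labels, and RNA integrity number and parental cross from the study's sample table. Named genes are the 9 members, up to 4 partners per described comparison with the smallest FDR under 0.05, and the 3 genes most alike to each member. Some genes that this rule names are not reported here. The members, gene lists and tests were chosen with earlier results of these data known. Promoter windows are RefSeq's on GRCm38.p6; 12 windows matched 6 of the 9 members.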

Additional observations from a re-analysis of the deposited data

Results flagged for a closer look

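Among 110 sets of a gene or transcript in 1 group, 5 held a mouse whose gap to its nearest neighbour exceeded Dixon's 95% limit, a rule by which chance alone marks about 1 in 20. Homer1 in WT metestrus mouse 380_1 was 6.29 log2 CPM, with the nearest mouse at 6.52. Shank3 in WT estrus mouse 3_1 was 4.06, with the nearest at 3.60. Dlg4 in WT male 1949, the male with the fewest nuclear RNAs (796 CPM), was 6.55, with the nearest at 6.83. Dlg2 in KO proestrus mouse 14_1 was 5.84, with the nearest at 6.66. The short Homer1 transcript in KO estrus mouse 12_1 was 6.68, with the nearest at 4.21.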

How the results depend on the processing

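The member counts moved with the fit. In the WT stage pairs, where 3 members passed, edgeR, DESeq2, no filter on low counts, unweighted voom and the oligodendrocyte covariate gave 0, parental cross as a covariate 1, and age, RNA integrity number, mice of 14 weeks or more, and younger diestrus mice only each gave 5. In the KO stage pairs, where 5 passed, edgeR, DESeq2 and no quality weights gave 2, DESeq2 size factors, no filter, parental cross and the oligodendrocyte covariate 3, and older diestrus mice only and the nuclear RNA covariate 1. No count is given there for mice of 14 weeks or more, which left 1 KO proestrus mouse. Against KO males, where 6 passed, edgeR, DESeq2, no quality weights, no filter, age and the nuclear RNA covariate gave 3. Against WT males, where 0 passed, younger diestrus mice only gave 3. With RNA integrity number as a covariate KO against WT gave 2 and the interactions 3, in place of 0. Leaving out 1 mouse gave 1 to 5 in WT pairs, 3 to 5 in KO pairs, 0 to 2 against WT males, 4 to 6 against KO males, 0 to 1 for KO against WT, 0 to 1 for interactions, 0 to 0 for all KO against all WT and 0 to 1 for Homer1 transcripts. Without mouse 2_2 or 8_1 the WT count was 5.

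Some directions turned. Camk2a in WT diestrus against WT estrus was -0.01 with the nuclear RNA covariate. With mice of 14 weeks or more, which leaves 1 KO proestrus mouse (14_1) that is assumed to vary like the other groups, KO metestrus minus diestrus was 0.06 for Camk2a, KO diestrus minus proestrus 0.35 for Dlg3, KO diestrus minus estrus -0.16 for Camk2a, KO diestrus minus males -0.06 for Dlg4 and KO females minus males -0.01 for Dlg2. With older diestrus mice only, the first 4 of these were 0.12, 0.08, -0.16 and -0.06. The cause was not tested. Relations among members numbered 14 without 2 libraries and 16 without diestrus mice, against 18. The covariates from marker lists, the fit of relations without diestrus mice and the Camk2a to Camk2b ratio were chosen after seeing the data. No paired analysis was possible because no whole mouse number occurs in more than 1 group. Some numbers share a first part across groups, the labels do not say what it stands for, and it was not fitted as a block. DESeq2 left the adjusted p of 2 to 9406 genes empty, which were not counted. Groups of 4 to 7 mice limit what could be detected.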
